A study of Arabidopsis thaliana with 18 samples.

Results

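SDG25 (AT5G42400), AT3G55080, SRT2 (AT5G09230), SHL (AT4G39100), LUH (AT2G32700) and TPR1 (AT1G80490) are 6 Arabidopsis genes grouped here as chromatin modifiers and corepressors. Their products are SET domain proteins, a sirtuin, a reader of histone methylation and transcriptional corepressors. No histone target of AT3G55080 or SRT2 is given in the sources used here. The 6 genes were taken by gene identifier from a table of alternative splicing events and hold 7 of its 399 events and 6 of its 334 genes. RNA was sequenced from tissue enriched for the shoot apical meristem, with the leaves removed, in 2 T-DNA mutants, sdg8-2 (Salk_026442) and sdg26-1 (Salk_013895), and in the Col-0 wild type (WT). Each mutant is represented by 1 insertion line. Plants were raised for 5 weeks at 16 °C with 8 h of light and 16 h of darkness per day, and were then either moved to 25 °C for 1 day or kept at 16 °C. Tissue was collected within a window of several hours after lights on, and the times per condition are not given. Collection time and growth chamber therefore cannot be told apart from temperature, nor collection time from genotype. Every one of the 6 conditions had 3 samples of about 10 plants, which makes 18 samples in all.

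For each event the table gives PSI (percent spliced in), here a fraction between 0 and 1 that states the share of 1 isoform among the transcripts of the event. PSI was estimated upstream both in single samples and in merged replicates. The table used here holds 1 value per condition, read as that of the 3 merged replicates. Each value below therefore has no standard deviation or n, and no difference between values could be tested. PSI is given with 2 decimals, so that a difference is uncertain by up to 0.01 and a difference between differences by up to 0.02 from rounding alone. The number of reads behind each PSI is unknown. All 399 events passed the temperature call of the authors in at least 1 genotype, so a listed event had already been selected for a response. No event of SDG8 or SDG26 is listed, so the table offers no check of the mutations, and PSI carries no expression level. Of the tissue markers, 0 of 4 meristem genes and 1 of 3 leaf genes (RCA) have a listed event, which leaves the tissue label unchecked. For intron retention (IR), PSI is read as the share of transcripts that keep the intron. For the alternative 3′ splice sites (A3) and alternative 5′ splice sites (A5), which of the isoforms PSI counts is not given in the sources used here, so a change in PSI is a shift between isoforms of unnamed direction.

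Histones carry methyl and acetyl groups that are added by writers, removed by erasers and bound by readers, and corepressors link transcription factors to enzymes that silence chromatin. SDG8 and SDG26, the genes mutated here, encode methyltransferases for lysine 36 of histone H3, a mark laid down along transcribed genes. Several of the genes described here act in the timing of flowering, a trait that responds to ambient temperature in Arabidopsis. Alternative splicing lets a single gene of this kind give transcripts with a different reading frame, a slightly changed protein or a changed untranslated region (UTR).

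The RefSeq annotation of the TAIR10.1 genome shows which splice sites these genes can choose between. The table gives no event positions, and the authors extended the annotation with assembled transcripts, so an annotated pair of sites cannot be assigned to a listed event with certainty. The pairs below are shown because they are of the same type as the listed event and lie within coding sequence in both isoforms, which shows what a switch would change in the protein. Capitals mark the final AG of the intron at each of the alternative acceptors, or the first bases of the intron at each of the alternative donors of SRT2.
AT3G55080 acceptors, chr3:20412853-20412897, reverse strand: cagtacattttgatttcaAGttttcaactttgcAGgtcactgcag
SRT2 donors, chr5:2872341-2872381, forward strand: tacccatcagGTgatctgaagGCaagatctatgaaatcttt
SHL acceptors, chr4:18218724-18218773, reverse strand: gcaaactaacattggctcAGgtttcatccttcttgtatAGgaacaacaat
LUH acceptors, chr2:13870097-13870132, forward strand: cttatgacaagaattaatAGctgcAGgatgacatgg
TPR1 acceptors, chr1:30265097-30265129, reverse strand: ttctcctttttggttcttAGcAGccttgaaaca

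The distances between the paired sites differed widely among the genes. In SHL the acceptors lie 20 nt apart, which is not a multiple of 3, and the annotated proteins have 228 residues with the first acceptor and 169 residues with the second. This is the only annotated A3 pair of SHL. In SRT2 the donors lie 11 nt apart, again not a multiple of 3, and the second donor begins with GC in place of the usual GT. The GC donor is used by 2 annotated transcripts, both of 271 residues, and the GT donor by 5 other transcripts, which encode longer proteins. The remaining pairs keep the reading frame. The acceptors lie 15 nt apart in AT3G55080, 6 nt apart in LUH and 3 nt apart in TPR1, where the tandem acceptors separate annotated proteins of 1120 and 1119 residues. AT3G55080, SRT2, LUH and TPR1 have further annotated pairs of the listed event type that reach into or lie within the 5′ UTR. For SDG25 the annotation holds no A3 pair, and its annotated retained introns, of 105 and 85 nt, both lie in the 3′ UTR.

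SDG25, also named ATXR7, lies on chromosome 5 (TAIR10.1, positions 16953515 to 16961245, reverse strand) and encodes a SET domain methyltransferase for lysine 4 of histone H3 that keeps the floral repressor FLC active. In sdg8-2, PSI of its A3 event was 0.07 at 25 °C and 0.23 at 16 °C. In sdg26-1 it was 0.15 at 25 °C and 0.13 at 16 °C, and in WT it was 0.18 at 25 °C and 0.05 at 16 °C. The lowest values of the event were thus those of warm sdg8-2 plants and of cool WT plants. The change, 25 °C minus 16 °C, was −0.16 in sdg8-2, 0.02 in sdg26-1 and 0.13 in WT, so the shift ran in opposite directions in sdg8-2 and WT. The change in sdg8-2 minus the change in WT was −0.29, an absolute value that 9 of the 399 events exceeded.

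The intron retention event of SDG25 followed another pattern. In this event PSI was 0.87 at 25 °C and 0.88 at 16 °C in sdg8-2, 0.61 at 25 °C and 0.93 at 16 °C in sdg26-1, and 0.84 at 25 °C and 0.96 at 16 °C in WT. Most SDG25 transcripts of the event kept the intron in every condition, and warm sdg26-1 plants stood apart with the lowest share. The change was −0.01 in sdg8-2, −0.32 in sdg26-1 and −0.12 in WT. At 25 °C the PSI in sdg26-1 lay 0.23 below that in WT (difference −0.23), and no listed event had a larger absolute difference between sdg26-1 and WT at 25 °C, with 3 events at this value. The corresponding difference at 16 °C was −0.03. The A3 and IR events of SDG25 share 1 assembled locus and are not independent measurements of the gene. The change in the mutant minus the change in WT was 0.11 in sdg8-2 and −0.20 in sdg26-1 for the IR event, whereas for the A3 event it was negative in both mutants (−0.29 in sdg8-2 and −0.11 in sdg26-1).

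AT3G55080 (chromosome 3, positions 20411342 to 20416043, reverse strand) is annotated as a SET domain protein. Histone lysine methyltransferases carry this domain, but the annotation gives no target for AT3G55080. PSI of its A3 event was 0.24 at 25 °C and 0.27 at 16 °C in sdg8-2, 0.25 at 25 °C and 0.11 at 16 °C in sdg26-1, and 0.34 at 25 °C and 0.12 at 16 °C in WT. The 16 °C value of sdg8-2 was therefore above the warm values of both mutants, while sdg26-1 and WT had low values in the cool. The changes were −0.03 in sdg8-2, 0.14 in sdg26-1 and 0.22 in WT. The WT change was the largest WT change among the 7 events, and the change in sdg8-2 minus that in WT was −0.25.

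SRT2 (chromosome 5, positions 2871365 to 2873789, forward strand) belongs to the sirtuins, a family of deacetylases that depend on NAD+. PSI of its A5 event was 0.66 at 25 °C and 0.77 at 16 °C in sdg8-2, 0.75 at 25 °C and 0.76 at 16 °C in sdg26-1, and 0.81 at 25 °C and 0.65 at 16 °C in WT. Warm sdg8-2 plants and cool WT plants again had the lowest values, as for the A3 event of SDG25. The changes were −0.11 in sdg8-2, −0.01 in sdg26-1 and 0.16 in WT. The change in sdg8-2 minus that in WT was −0.27, an absolute value that 12 of the 399 events exceeded, and that in sdg26-1 minus that in WT was −0.17.

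SHL (chromosome 4, positions 18217629 to 18220324, reverse strand) encodes a reader of histone methylation with a PHD finger and a BAH domain, which represses flowering. PSI of its A3 event was 0.20 at 25 °C and 0.40 at 16 °C in sdg8-2, 0.27 at 25 °C and 0.34 at 16 °C in sdg26-1, and 0.25 at 25 °C and 0.36 at 16 °C in WT. PSI was lower at 25 °C than at 16 °C in all 3 genotypes, with changes of −0.20 in sdg8-2, −0.07 in sdg26-1 and −0.11 in WT. The changes in the mutants differed from that in WT by −0.09 in sdg8-2 and 0.04 in sdg26-1, both below 0.1 in absolute value. The first of these lies within the rounding error of that limit.

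**Figure D1:**
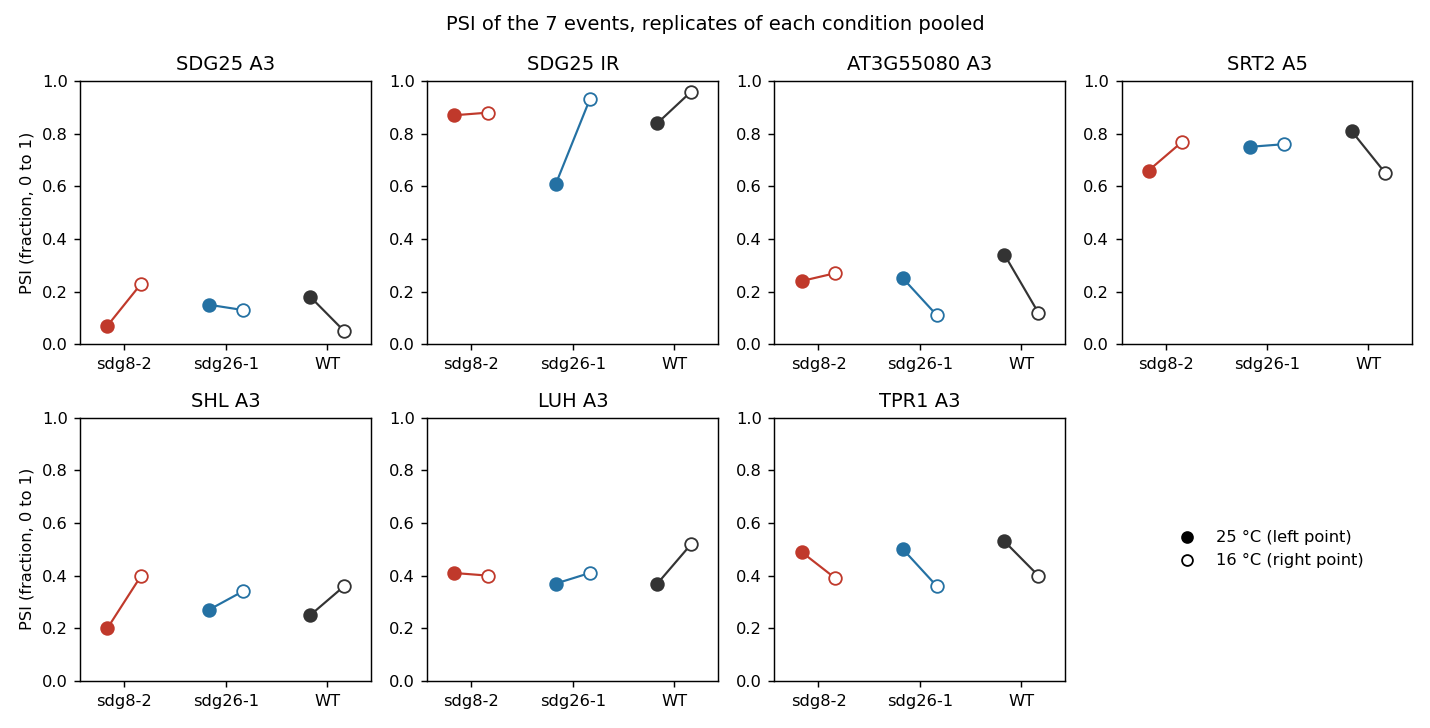
PSI (vertical axis, fraction from 0 to 1) of the 7 events in sdg8-2, sdg26-1 and WT at 25 °C (filled points, left) and 16 °C (open points, right), 1 pooled value per condition without error bars. The slope of SDG25 A3 and SRT2 A5 in sdg8-2 runs against that in WT, SDG25 IR has its steepest slope in sdg26-1, and TPR1 slopes the same way in all 3 genotypes.

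LUH and TPR1 are the corepressors among the 6 genes. LUH, the homolog of LEUNIG (chromosome 2, positions 13866721 to 13872246, forward strand), is related to the Groucho and Tup1 corepressors of animals and yeast. PSI of its A3 event was 0.41 at 25 °C and 0.40 at 16 °C in sdg8-2, 0.37 at 25 °C and 0.41 at 16 °C in sdg26-1, and 0.37 at 25 °C and 0.52 at 16 °C in WT. A single condition, cool WT plants, stood above the others. The changes were 0.01 in sdg8-2, −0.04 in sdg26-1 and −0.15 in WT, and they exceeded the WT change by 0.16 in sdg8-2 and 0.11 in sdg26-1.

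TPR1, a TOPLESS-related corepressor that transcription factors recruit and that acts with histone deacetylases, lies on chromosome 1 (positions 30260818 to 30267125, reverse strand). PSI of its A3 event was 0.49 at 25 °C and 0.39 at 16 °C in sdg8-2, 0.50 at 25 °C and 0.36 at 16 °C in sdg26-1, and 0.53 at 25 °C and 0.40 at 16 °C in WT. The warm values all lay above the cool ones. The changes of 0.10, 0.14 and 0.13 in sdg8-2, sdg26-1 and WT spanned only 0.04, the narrowest spread among the 7 events, against 0.29 for SDG25 A3 and 0.31 for SDG25 IR.

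To compare the events with the rest of the table, absolute differences in PSI of at least 0.1 were counted. In sdg8-2 the change between temperatures reached this limit in 4 of the 7 events, against 56.1% of all listed events. PSI was higher at 25 °C in 1 of the 4 (TPR1), where 24.3% of listed events were higher by at least 0.1, and lower in SDG25 A3, SRT2 and SHL, where 31.8% were lower. In sdg26-1 the limit was reached in 3 of 7 events, against 59.6% of listed events. PSI was higher in AT3G55080 and TPR1, beside 24.8% of listed events, and lower in SDG25 IR, beside 34.8%. In WT all 7 events reached the limit, against 51.1% of listed events, with 4 higher (SDG25 A3, AT3G55080, SRT2 and TPR1, beside 23.3%) and 3 lower (SDG25 IR, SHL and LUH, beside 27.8%). The counts depended on the limit: at 0.15 they were 2 of 7 in sdg8-2, 1 of 7 in sdg26-1 and 3 of 7 in WT, beside 32.1%, 32.8% and 30.3% of listed events. The median absolute change over the 7 events was 0.10 in sdg8-2, 0.07 in sdg26-1 and 0.13 in WT, beside 0.11, 0.11 and 0.10 over all listed events.

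**Figure D2:**
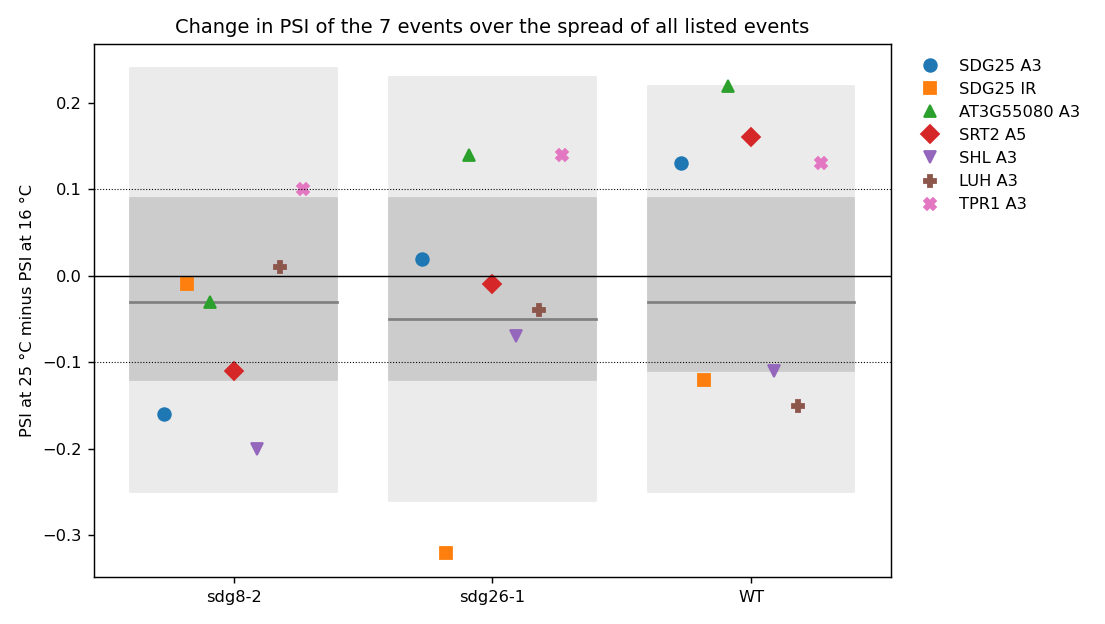
Change in PSI (vertical axis, 25 °C minus 16 °C) of the 7 events in sdg8-2, sdg26-1 and WT. Symbols are single pooled values, dark and light grey bands span the 25 to 75 and 5 to 95 percentiles of all 399 listed events with their median as a line, and dotted lines mark 0.1 and −0.1. On or outside the dotted lines lie 4 symbols in sdg8-2, 3 in sdg26-1 and all 7 in WT, while at 0.15 the counts are 2, 1 and 3.

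The temperature response of the mutants was then set against that of WT. The change in sdg8-2 differed from the WT change by at least 0.1 in 5 of 7 events (SDG25 A3, SDG25 IR, AT3G55080, SRT2 and LUH), where 26.1% of listed events did. The change in sdg26-1 differed from it by at least 0.1 in 4 of 7 events (SDG25 A3, SDG25 IR, SRT2 and LUH), where 22.6% did. SHL and TPR1 stayed under the limit in both mutants. Within the rounding error of 0.02 from the limit lay SDG25 IR (0.11) and SHL (−0.09) for sdg8-2. For sdg26-1 the same held for SDG25 A3 (−0.11), LUH (0.11) and AT3G55080 (−0.08). Rounding alone could therefore move these events across the limit. The median absolute difference over the 7 events was 0.16 for sdg8-2 and 0.11 for sdg26-1, beside 0.05 and 0.04 over all listed events. These comparisons share the same WT values, and the 6 genes were chosen with such values known, so the counts describe these genes and do not set them apart by a test. All 7 events had a WT change of at least 0.1, against 51.1% of listed events, so the shares over all listed events are not a matched background. A listed event needed a call in only 1 genotype, and which genotype's call each event passed was not used here.

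In sdg8-2 the sign of the change was opposite to that in WT in 4 events (SDG25 A3, AT3G55080, SRT2 and LUH), against 10.8% of listed events. The sdg8-2 changes of AT3G55080 (−0.03) and LUH (0.01) were small, and that of LUH does not exceed the rounding error of 0.01. In SDG25 A3 and SRT2 the opposite changes both reached 0.1, which 6 of the 399 events did in the comparison of sdg8-2 with WT. In sdg26-1 only SRT2 had the opposite sign, with a change of −0.01, against 7.27% of listed events.

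**Figure D3:**
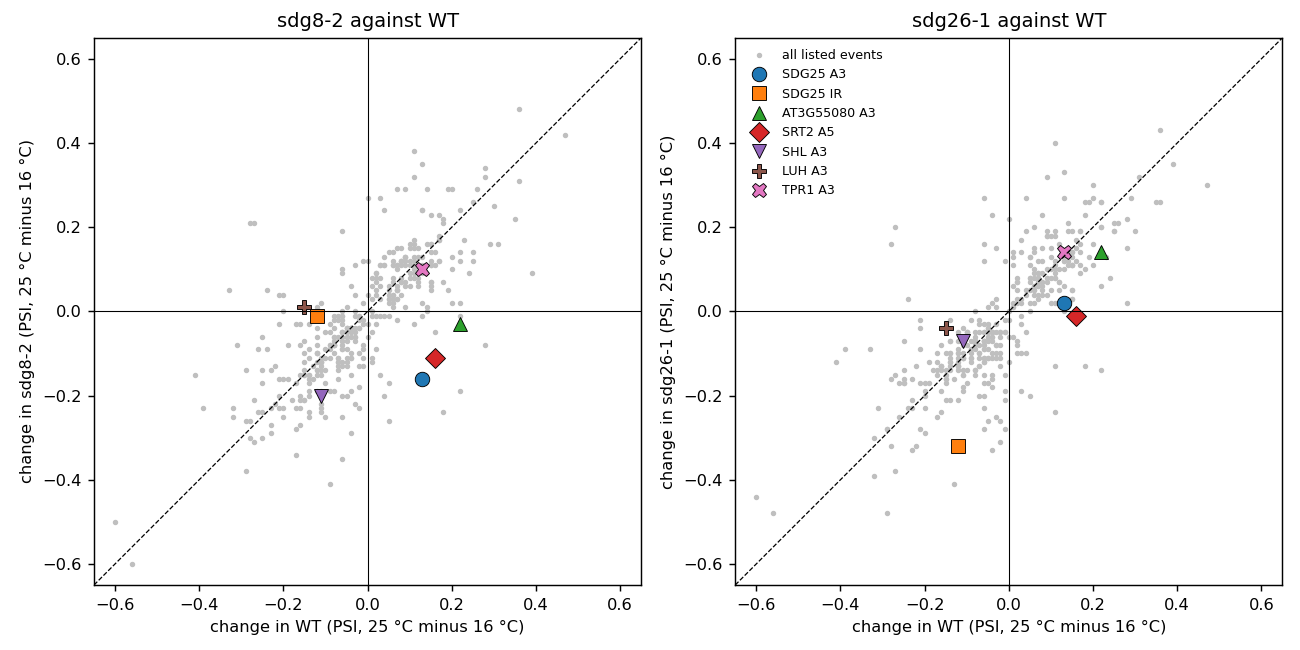
Change in PSI (25 °C minus 16 °C) in sdg8-2 (left panel) and sdg26-1 (right panel) on the vertical axes against that in WT on the horizontal axes. Grey points are all 399 listed events, coloured symbols the 7 events, and the dashed line marks equal change. SDG25 A3 (−0.16 in sdg8-2 and 0.13 in WT) and SRT2 A5 (−0.11 and 0.16) lie in the lower right part of the sdg8-2 panel.

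Differences between genotypes were also read at each temperature. At 25 °C, PSI in sdg8-2 differed from that in WT by at least 0.1 in 3 of 7 events, all lower in sdg8-2 (SDG25 A3 by −0.11, AT3G55080 by −0.10 and SRT2 by −0.15), where 15% of listed events reached the limit. At 16 °C it did so in 4 of 7, beside 18.3% of listed events. The same 3 events were then higher in sdg8-2 (0.18, 0.15 and 0.12), and LUH was lower (−0.12). PSI in sdg26-1 differed from WT by at least 0.1 in 1 event at 25 °C (SDG25 IR), beside 9.52% of listed events, and in 2 events at 16 °C (SRT2, 0.11, and LUH, −0.11), beside 14.3%. In LUH the mutants thus resembled each other at 16 °C, with values of 0.40 in sdg8-2 and 0.41 in sdg26-1 against 0.52 in WT.

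The sign of the difference between sdg8-2 and WT was opposite at 25 °C and 16 °C in 6 of the 7 events, all but TPR1, against 37.1% of listed events. For sdg26-1 this held for 3 events (SDG25 A3, SRT2 and SHL), against 41.1%. This count was chosen after the values had been seen. In each event, the mutant minus WT difference at 25 °C minus that at 16 °C equals the difference between the changes counted above. The counts are therefore not separate findings. The gap between the highest and the lowest genotype had a median of 0.10 at 25 °C and 0.12 at 16 °C over the 7 events, beside 0.05 at both temperatures over all listed events. It was widest in SDG25 IR at 25 °C (0.26) and in SDG25 A3 at 16 °C (0.18), and was 0.04 at both temperatures in TPR1.

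**Figure D4:**
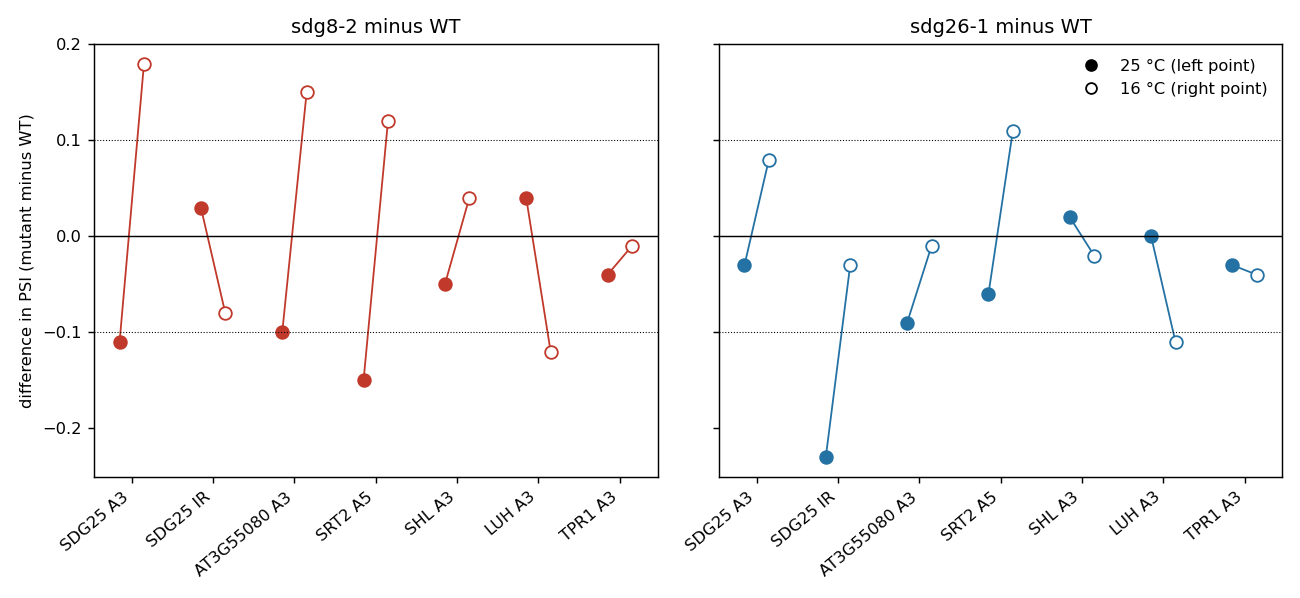
Difference in PSI (vertical axis, mutant minus WT) of the 7 events for sdg8-2 (left panel) and sdg26-1 (right panel) at 25 °C (filled points) and 16 °C (open points), with dotted lines at 0.1 and −0.1. Lines between the points cross 0 in 6 events for sdg8-2, and the lowest point for sdg26-1 is SDG25 IR at 25 °C (−0.23).

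For each event, the 2 listed events with the most similar profile were found from the root mean square difference of PSI over the 6 conditions, after each event's mean had been subtracted. The points of such a profile come from the same pooled libraries for every event. The A3 event of SDG25 and the A5 event of SRT2 were each other's closest match (0.030), among all 399 events. Second nearest to SDG25 A3 was an A3 event of AT2G40700 (0.035), with changes of −0.17 in sdg8-2 and 0.05 in WT. Second nearest to SRT2 A5 was an IR event of AT5G18570 (0.043), with changes of −0.01 in sdg8-2 and 0.13 in WT. PSI of the AT5G18570 event was 0.86 in cool WT plants and 0.98 or 0.99 in every other condition, near the upper end of the scale. AT3G55080 was closest to an IR event of FRS2 (0.020) and an IR event of VPS22 (0.021). SDG25 IR had A5 events of ABA3 (0.041) and of RS31a (0.042) nearest to it, both lowest in warm sdg26-1 plants, with PSI of 0.11 and 0.42. For SHL the nearest were an A5 event of AT1G51690 (0.016) and an IR event of AT1G61970 (0.017). For LUH the nearest were an A3 event of AT1G27520 and an IR event of AT5G42690 (0.026 each). PSI of the AT5G42690 event lay between 0.01 and 0.09, near the lower end of the scale. For TPR1 the nearest were an ES (exon skipping) event of AT5G22620 (0.009) and an A3 event of AT5G03500, the Mediator subunit Med7 (0.014).

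Among the listed events, 38.8% were IR, 32.6% A3 and 18.3% A5, while the 7 events comprised 1 IR, 5 A3 and 1 A5. Besides the 6 genes, 15 other genes whose annotation names a histone or chromatin domain hold 17 listed events. This list was made with results of these data known and need not be complete. HAC12 (AT1G16710) and AT2G25590 each hold a pair of events with nearly equal values. The change between temperatures reached 0.1 in 13 of the 17 events in sdg8-2 (7 higher and 6 lower at 25 °C), 10 in sdg26-1 (5 and 5) and 8 in WT (4 and 4), beside 56.1%, 59.6% and 51.1% of all listed events. The change differed from that in WT by at least 0.1 in 5 events for sdg8-2 and 6 for sdg26-1, beside 26.1% and 22.6% of all listed events. Both HAC12 events are counted for each mutant (−0.19 and −0.21 for sdg8-2, −0.22 and −0.24 for sdg26-1). In none of the 17 was the sign opposite to that in WT in either mutant, beside 10.8% of all listed events for sdg8-2 and 7.27% for sdg26-1. The median absolute difference of the changes was 0.06 for each mutant, beside 0.05 for sdg8-2 and 0.04 for sdg26-1 over all listed events.

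Single genes of this list ranged widely. The ES event of AT5G52070, an Agenet domain gene, was higher at 25 °C in every genotype, with PSI of 0.68 and 0.26 at 25 °C and 16 °C in sdg8-2, 0.64 and 0.34 in sdg26-1, and 0.79 and 0.32 in WT. An A5 event of HAC12 (AT1G16710), a histone acetyltransferase of the CBP family, had PSI of 0.21 and 0.44 at 25 °C and 16 °C in sdg8-2, 0.31 and 0.57 in sdg26-1, and 0.30 and 0.32 in WT. The mutants thus shared a change in HAC12 (−0.23 in sdg8-2 and −0.26 in sdg26-1) that was −0.02 in WT. SUVR2 (AT5G43990), a further SET domain gene, had changes of 0.13 in sdg8-2, 0.27 in sdg26-1 and 0.04 in WT in an A5 event. The largest falls in the other genotypes were −0.24 in sdg8-2, in an A3 event of the PHD finger gene AT1G77800, and −0.23 in WT, in an IR event of the SWIB domain gene AT1G49520.

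**Figure D5:**
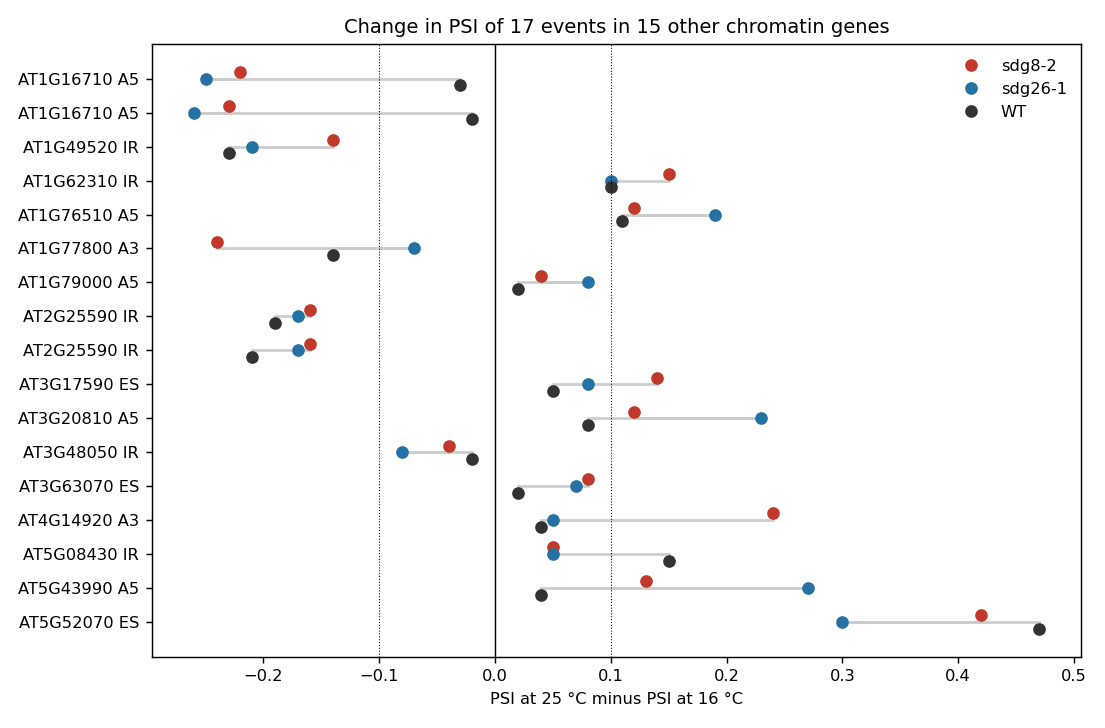
Change in PSI (horizontal axis, 25 °C minus 16 °C) of 17 events in 15 other chromatin genes (rows) in sdg8-2, sdg26-1 and WT, with dotted lines at 0.1 and −0.1. In each row the 3 points lie on the same side of 0, and the AT5G52070 event has the highest values (0.42 in sdg8-2, 0.30 in sdg26-1 and 0.47 in WT).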

How the data were processed

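Stranded poly(A) RNA libraries of 18 samples were sequenced. The authors' sources name TopHat2 with the TAIR10 genome, Cufflinks for transcript assembly and MISO for PSI. Their versions are not stated in these sources. PSI, a fraction, was estimated by the authors per sample and on the merged 3 replicates, and 1 value per condition was deposited for 399 events in the table used. For a call the authors asked for a Bayes factor from 5 upward, for 20 or more reads specific to an isoform in 2 or more replicates, and for smaller differences within than between conditions. Another 6 deposited columns hold the authors' PSI differences and yes or no calls. Their values were not used, beyond the count that every listed event has such a call.

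Changes (25 °C minus 16 °C), differences between genotypes and counts at a limit of 0.1 were computed with Python 3.11.15, pandas 2.3.3 and numpy 2.4.6 and tested on simulated data, and plotted with matplotlib 3.10.9. All events of the 6 genes are named, with their 2 nearest profiles and, from a list of other chromatin genes, those with the largest changes. Other genes of that list are given by counts, and SUVR2 was added after its values were seen. The 6 genes and the lists were chosen with earlier results of these data known. Sequences come from RefSeq TAIR10.1, whose coding coordinates equal those in the table for 5 of the 6 genes (not SDG25). Alternatives were limits of 0.05, 0.11 and 0.15, log odds, 1 event per gene, a minimum on both signs, and Pearson's correlation for profiles.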

Additional observations from a re-analysis of the deposited data

Results flagged for a closer look

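The change in PSI of the A3 event of SDG25 had opposite directions in sdg8-2 (−0.16) and WT (0.13), each of at least 0.1, and the changes differed by −0.29. The A5 event of SRT2 likewise had opposite directions in sdg8-2 (−0.11) and WT (0.16), and the changes differed by −0.27. The difference between genotypes was not tested in either event, because the table used here holds 1 value per condition.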

How the results depend on the processing

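No paired analysis was possible because the table used here holds 1 PSI per condition and none per replicate, so leaving out a replicate could not be run either. Of 51 alternative counts over the 7 events, 42 stayed within 1.5 times the main count. The share of listed events past 0.1 stayed within 1.5 times when only A3, A5 and IR events, 1 event per gene or events of other genes were used (27 values), but moved with the limit itself. A limit of 0.15 left changes between temperatures in 2 events in sdg8-2, 1 in sdg26-1 and 3 in WT, beside 32.1%, 32.8% and 30.3% of listed events. It left a difference between the changes in sdg26-1 and WT in 2 events (11.5% of listed events), a difference between sdg8-2 and WT in 1 event at 25 °C (6.02%) and 2 at 16 °C (7.27%), and one between sdg26-1 and WT in 0 events at 16 °C (6.27%). A limit of 0.05 gave a difference between sdg26-1 and WT at 25 °C in 3 events (32.8%). With both changes required to reach 0.02, 0 of the 7 events had a sign in sdg26-1 opposite to WT, beside 5.76% of listed events. Of the 14 nearest profiles, Pearson's correlation named 5. The lower bound of 0.02 for the sign at both temperatures was chosen after seeing the data. It left the counts at 6 for sdg8-2 and 3 for sdg26-1, while the shares of listed events became 24.8% and 27.3%, against 37.1% and 41.1% without it. Values without replicates or read depth limit every comparison to a description.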
